A study of Homo sapiens with 2 samples.

Results

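The genes described here are 35 genes of homologous recombination and of the Fanconi pathway, taken by name from a list of the pathways' members. All 35 were found among the 24462 gene symbols of the deposited tables, MRE11 under its older symbol MRE11A and none on a repeated row. The values are messenger RNA counts from a human line and its irradiated descendant. The established line MDA-MB-231 comes from a triple negative breast cancer, a type without estrogen and progesterone receptors or HER2 amplification, and the labels name no irradiation for it. RT-R-MDA-MB-231, its radiotherapy-resistant derivative, was made by giving X-rays again and again in doses of 2 Gy until 50 Gy had been reached. Both were kept in RPMI medium with serum and antibiotics. Whether the derivative is 1 clone or a pool is not given in the sources used here.

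Homologous recombination repairs double-strand breaks by copying the sister chromatid, mainly in S and G2 phase. Nucleases and helicases first trim the broken ends to single strands, replication protein A covers them, and BRCA1 and its partners help to load a recombinase that searches for the matching sequence. The Fanconi pathway acts where a crosslink ties both DNA strands together at a stalled replication fork. A nuclear core complex attaches ubiquitin to FANCD2 and FANCI, and the marked pair then directs nucleases and recombination factors to the lesion. X-rays break both strands of DNA, and breast tumors with defects in BRCA1 or its partners are known for their sensitivity to DNA damage.

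Each line gave 1 library, with 9255008 counts for parental and 10014804 for RT-R cells, so the differences below rest on no replicates and come without p-values. Ratios were taken after scaling by the trimmed mean of M-values and carry 95% intervals that cover counting error only, not variation between cultures. Genes with 20 or more counts in either library were taken as measured. A measured gene was called higher or lower at 1.5-fold or 2-fold when its interval also lay on one side of equal expression. The labelled cell type was checked on 4 markers: VIM (4310 parental and 8454 RT-R counts) and CD44 (2560 and 3129) were abundant, while ESR1 (0 and 1) and PGR (0 and 0) were at or near 0. The immune markers PTPRC and CD3E had no count in either library.

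As a group, the recombination and Fanconi genes did not move one way. All 35 were measured, with between 19 and 891 parental and between 15 and 1084 RT-R counts. Summed, they held 10522 parental counts (1137 per 1000000 library counts) and 11293 RT-R counts (1128 per 1000000). The median log2 ratio was -0.06, with the middle 50% of the genes between -0.42 and 0.25, beside a median of -0.01 over all 12644 measured genes and quartiles of -0.34 and 0.34. Log2 ratios were above 0 for 16 genes and below 0 for 19.

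Of the 35 genes, 5 fell at least 1.5-fold (14.3%), namely RAD51AP1, BRIP1, BLM, EME1 and FANCB, and 1 rose (2.86%), FANCE. Among all measured genes the shares were 11.9% lower and 13.7% higher. The lower share of the repair genes lay near the background, and their higher share, which is 1 gene, lay below it. With scaling by total counts the split was 3 higher and 3 lower: RAD52 and MUS81 then reached 1.5-fold, and BLM and EME1 did not. The background under that scaling was 15.1% higher and 10.4% lower. At 2-fold, 0 genes were higher and 1, FANCB, was lower, where 6.89% and 3.97% of all measured genes were called. The interval alone lay above 1 for 10 genes and below 1 for 12, against 27.7% and 30.4% of all measured genes, that is 28.6% and 34.3% of the repair genes. With total counts or the upper quartile this tally was 12 above and 11 below, as RPA1 and FANCC came to lie above 1 and the interval of RAD51C held 1. In bulk RNA, fewer cells in the cell cycle phase that expresses a gene and less RNA per cell cannot be told apart.

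**Figure D1:**
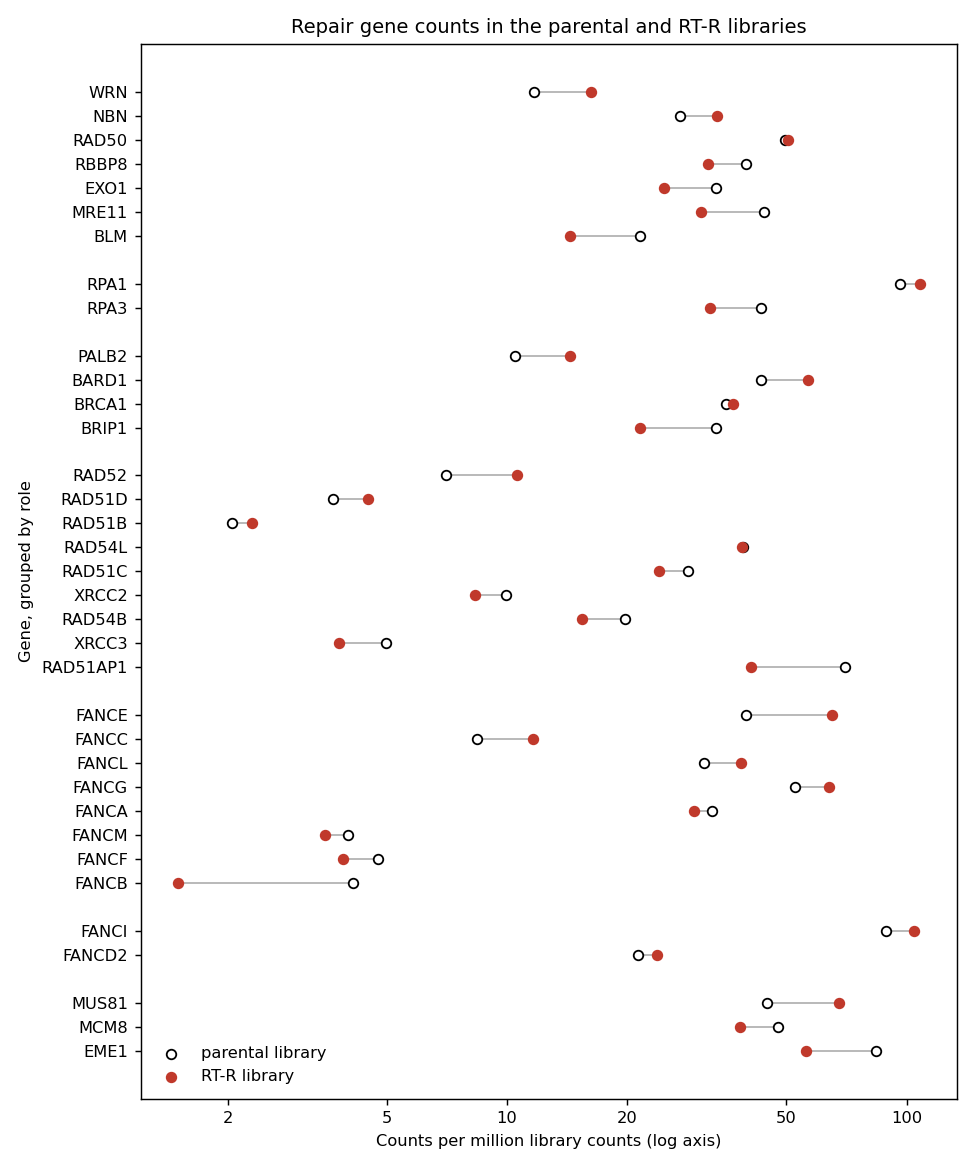
The 35 genes are shown by their counts per 1000000 library counts (log axis) in the parental library (open circles) and the RT-R library (filled circles), grouped by role from end resection at the top to the late helicase and nuclease genes at the bottom. FANCB, with 38 and 15 counts, shows the widest gap, and RAD50, BRCA1 and RAD54L have nearly coincident points.

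The end resection genes split within their own complex. MRE11, the nuclease of the MRN complex that senses broken ends, had 407 parental and 307 RT-R counts, 1.48-fold lower (1.27 to 1.72) and just short of the 1.5-fold rule. RAD50, the ATPase that tethers the ends, had 460 and 506 counts, a ratio of 0.986 (0.868 to 1.12). NBN, which recruits damage kinases, went from 251 to 336 counts, a ratio of 1.20 (1.02 to 1.42). So the 3 subunits lay below, at and above equal expression. RBBP8, which encodes CtIP and starts resection with MRN, went from 367 to 319 counts, 1.28-fold lower (1.10 to 1.4955). EXO1, the exonuclease of long-range resection, went from 308 to 248 counts, 1.39-fold lower (1.17 to 1.64). The RecQ helicases went apart. BLM, mutated in Bloom syndrome, fell from 199 to 144 counts, 1.54-fold (1.24 to 1.92), while WRN, mutated in Werner syndrome, had 108 and 162 counts, a ratio of 1.34 (1.05 to 1.73). Of the 7 genes, 4 had an interval below 1 (57.1%) and 2 above it (28.6%), against 30.4% and 27.7% of all measured genes. The median log2 ratio was -0.36, beside -0.01 over all measured genes. With 7 genes in the list, these values are descriptions.

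Replication protein A, the trimer that covers single-stranded DNA, has 2 subunits among the 35 genes. RPA1, the large DNA-binding subunit, went from 891 to 1084 counts, a ratio of 1.09 (0.997 to 1.19). Its interval was 1.03 to 1.23 with total-count scaling and also lay above 1 with the median of ratios and the upper quartile. RPA3, the smallest subunit, went from 399 to 322 counts, 1.38-fold lower (1.19 to 1.61). RPA3 lies on chromosome 7, where the 15 measured genes on each side had a median log2 ratio of -0.37, close to the -0.47 of RPA3 itself. The middle subunit gene RPA2, counted among the further pathway genes described later, had 752 and 722 counts, 1.16-fold lower (1.05 to 1.29).

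Among the BRCA1 complexes, only the helicase gene BRIP1 passed the 1.5-fold rule. BRCA1, the ubiquitin ligase that promotes resection and recombinase loading, had 326 and 369 counts, a ratio of 1.01 (0.872 to 1.18). BARD1, its obligate partner, had 401 and 567 counts, a ratio of 1.27 (1.11 to 1.44). PALB2, the bridge from BRCA1 to the recombinase loading machinery, had 97 and 144 counts, a ratio of 1.33 (1.02 to 1.74). BRIP1, also called FANCJ, a helicase that binds BRCA1 and unwinds DNA at forks, fell from 309 to 216 counts, 1.595-fold (1.34 to 1.91). BARD1 lies among genes that were themselves higher: the median log2 ratio of its neighbours on chromosome 2 was 0.51, above its own 0.34. The neighbours of BRIP1 on chromosome 17 had a median of 0.03.

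The strand exchange genes were lowest at RAD51AP1 and highest at RAD52. RAD51AP1, which stimulates pairing of the recombinase filament with its template, fell from 649 to 408 counts, 1.77-fold (1.56 to 2.01). Of the 5 falls, it had the interval whose nearer bound lay farthest from equal expression. The translocase RAD54L, which moves the filament along DNA, had 361 and 387 counts, a ratio of 0.961 (0.831 to 1.11), and its relative RAD54B had 183 and 154 counts, 1.33-fold lower (1.06 to 1.65). RAD52, an annealing protein that can serve when BRCA1-dependent loading is impaired, had 65 and 106 counts, a ratio of 1.46 (1.06 to 2.02). It stayed below the 1.5-fold rule here and passed it, at 1.51, with total-count scaling.

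The paralogs of the recombinase assemble into the BCDX2 and CX3 complexes, which stabilise the filament. RAD51C, the paralog shared by both complexes, went from 263 to 240 counts, 1.22-fold lower (1.02 to 1.46), an interval that held 1 with total-count scaling. XRCC2 had 92 and 83 counts, 1.24-fold lower (0.909 to 1.68), and XRCC3 had 46 and 38, 1.35-fold lower (0.859 to 2.13). RAD51D had 34 and 45 counts, a ratio of 1.19 (0.743 to 1.91), and RAD51B had 19 and 23, a ratio of 1.09 (0.565 to 2.11). All 4 intervals from XRCC2 to RAD51B held equal expression, and those of RAD51B, RAD51D and XRCC3 were so wide that a 1.5-fold difference was not detectable at this depth. The transcript end of RAD51D is also covered, on the same strand, by the readthrough gene RAD51L3-RFFL (307 and 335 counts), so the count of RAD51D is uncertain.

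The Fanconi core complex held both the largest fall and, with the trimmed mean of M-values, the only rise called at 1.5-fold. FANCE, the subunit that binds FANCD2 and brings it to the core, rose from 366 to 653 counts, 1.5997-fold (1.41 to 1.82). Its module partners did not pass the rule: FANCC had 78 and 116 counts, a ratio of 1.33 (0.992 to 1.80; 1.02 to 1.86 with total-count scaling), and FANCF had 44 and 39, 1.26-fold lower (0.799 to 1.99). FANCB, a subunit of the catalytic module, fell from 38 to 15 counts, 2.83-fold (1.52 to 5.53). FANCL, the ubiquitin ligase of that module, had 288 and 386 counts, a ratio of 1.20 (1.03 to 1.40). FANCA had 302 and 294 counts, 1.15-fold lower (0.972 to 1.35), and its binding partner FANCG had 487 and 641, a ratio of 1.18 (1.05 to 1.33). FANCM, the translocase that anchors the core on DNA, had 37 and 35 counts, 1.18-fold lower (0.722 to 1.93).

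FANCB is the only one of these genes on the X chromosome, where the 423 measured genes had a median log2 ratio of -0.78 and 65.2% fell at least 1.5-fold. Its own log2 ratio was -1.47, and its neighbours had a median of -0.76. After subtraction of the neighbours it was -0.70, and with the shifted interval it no longer passed the 1.5-fold rule. How far the chromosome's shift makes up the fall of FANCB was not tested.

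The targets of the core complex had ratios near 1. FANCI had 821 and 1046 counts, a ratio of 1.14 (1.04 to 1.25), and FANCD2 had 197 and 237, a ratio of 1.08 (0.889 to 1.31). FANCD2 lies on chromosome 3 among genes with a median log2 ratio of -0.43, and its own log2 ratio was 0.54 above theirs. In the late steps, MUS81 and EME1, which together form a nuclease that cuts recombination intermediates and stalled forks, lay on opposite sides. MUS81, the catalytic subunit, went from 414 to 679 counts, a ratio of 1.47 (1.30 to 1.67), just below the rule, and 1.52 with total-count scaling. EME1, its regulatory partner, fell from 774 to 561 counts, 1.54-fold (1.38 to 1.72). MCM8, a helicase that acts in recombination and DNA synthesis after strand exchange, went from 441 to 383 counts, 1.28-fold lower (1.12 to 1.48).

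**Figure D2:**
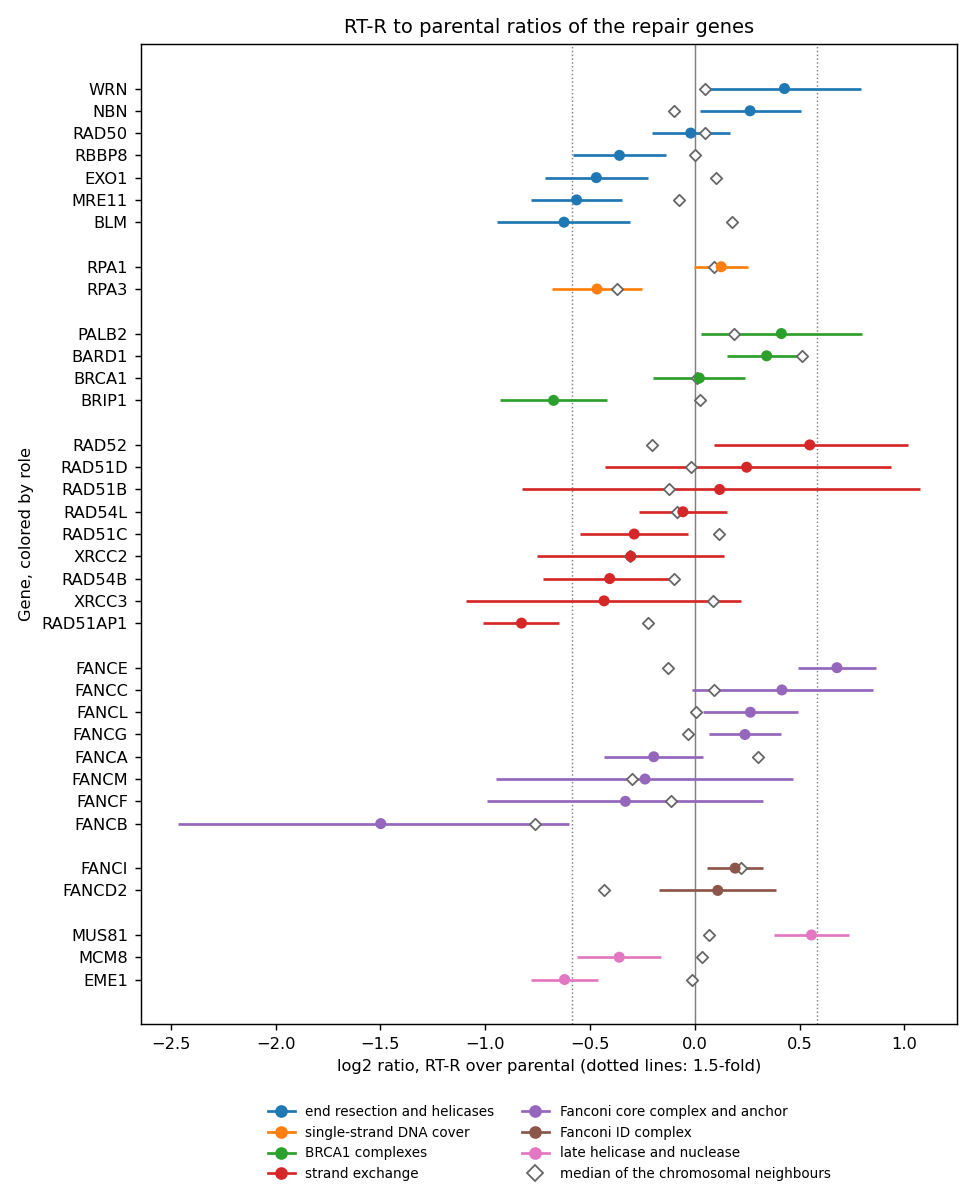
Log2 ratio of RT-R over parental scaled counts for the 35 genes (points, no pseudocount) with 95% counting intervals (bars), colored by role. Open diamonds give the median log2 ratio of the chromosomal neighbours, and dotted lines mark 1.5-fold. FANCB, the only X-linked gene, lies farthest to the left with neighbours at -0.76, and FANCE lies farthest to the right with neighbours at -0.13.

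Genes that share a chromosome segment were compared with it for all 35, which lie on 17 chromosomes. After the neighbours' median was subtracted, 2 genes were at least 1.5-fold higher, RAD52 at a log2 difference of 0.75 and FANCE at 0.80. Another 5 were at least 1.5-fold lower: BLM at -0.80, BRIP1 at -0.70, FANCB at -0.70, EME1 at -0.61 and RAD51AP1 at -0.60. All 7 but FANCB passed the 1.5-fold rule with the shifted interval. Over all placed genes, 13.9% were 1.5-fold higher and 9.63% lower by this difference, without the interval. Chromosome 17 carried 6 of the genes, and BRIP1 and EME1 fell there while RPA1, BRCA1, RAD51C and RAD51D had smaller differences.

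Subunits that work as partners were then set against each other, because the ratio of 2 genes within a library does not depend on scaling. The 16 pairs were chosen after the values were seen, as known partners among the 35 genes, and the values are descriptions. For 9 pairs the counting interval lay on one side of equal balance. The share among other gene pairs was not computed, so this count has no background of its own. For single genes, which is a different measure, the interval lay above 1 for 27.7% and below 1 for 30.4% of all measured genes. Some genes, such as BRCA1 and MRE11, recur across the pairs, so the pairs are not separate observations. The MUS81 to EME1 count ratio went from 0.535 in parental to 1.21 in RT-R cells, a 2.26-fold shift (1.91 to 2.67). FANCB relative to FANCL shifted 3.40-fold down (1.78 to 6.77), on low FANCB counts and with the X-linked shift given above.

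In the MRN complex, MRE11 relative to NBN shifted 1.77-fold down (1.41 to 2.23) and relative to RAD50 1.46-fold down (1.19 to 1.78), while RAD50 relative to NBN was 0.822 (0.665 to 1.02). BRCA1 gained on BRIP1, 1.62-fold (1.28 to 2.05), and on RBBP8, 1.30-fold (1.05 to 1.62). Against BARD1 it lost ground, 1.25-fold (1.02 to 1.53). RPA1 gained 1.51-fold on RPA3 (1.27 to 1.80). FANCA relative to FANCG shifted 1.35-fold down (1.10 to 1.66). The pair FANCD2 and FANCI kept its balance within counting error, at 0.944 (0.761 to 1.17). Pairs of the low-count paralogs had wide intervals, such as RAD51D against XRCC2 at 1.47 (0.831 to 2.60). The pair ratios take no account of chromosomal neighbours. With the neighbours' median subtracted, the log2 ratio was 0.01 for BRCA1 and -0.17 for BARD1, so the order of that pair was reversed. It was 0.03 for RPA1 and -0.09 for RPA3, which lay closer together. MRE11 at -0.49 and NBN at 0.36 stayed apart.

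**Figure D3:**
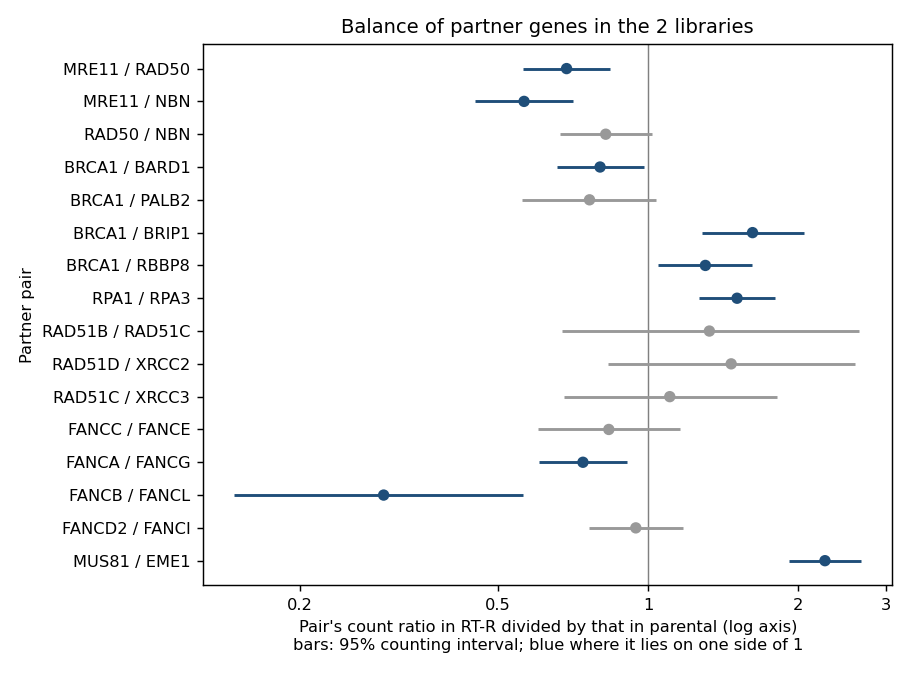
For 16 partner pairs, the count ratio of the first to the second gene in RT-R cells divided by that in parental cells (log axis), with 95% counting intervals, blue where the interval lies on one side of 1. MUS81 over EME1 lies farthest to the right at 2.26 and FANCB over FANCL farthest to the left.

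Overlapping genes limit some of these values, because the use of strand in counting is not given. In the GENCODE v29 annotation 18 of the 35 genes overlap another gene counted under the same symbol as there. For 11 the other gene covers their transcript end, which a 3' tag protocol reads. Overlapping genes counted under an older symbol were not looked for, so both numbers are minimums. EME1 ends inside LRRC59 on the opposite strand, which had 1613 and 1200 counts, 1.499-fold lower (1.39 to 1.62) and so much like EME1. MUS81 ends inside EFEMP2, also on the opposite strand, with 53 and 119 counts, a ratio of 2.01 (1.44 to 2.84). Reads of these genes cannot be told apart from those of their partners with certainty. Similar overlaps at the end were found for XRCC3 with KLC1, RAD54L with LRRC41, FANCA with ZNF276, FANCL with VRK2 and FANCI with POLG. For RAD51AP1, BRIP1, BLM, FANCB and FANCE no overlap was found with a gene counted under its GENCODE symbol.

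Promoters were searched for motifs of cell cycle transcription, since many repair genes peak in S phase. RefSeq promoters of GRCh38.p14, from 250 bases before to 50 after the start, were found for 30 of the 35 genes. The E2F spellings TTTCCCGC, TTTGGCGC, TTTCGCGC and TTTGCCGC on either strand were in the promoters of 6 (20%): EXO1, XRCC2, FANCA, FANCC, FANCD2 and MCM8. They were in 6.70% of the promoters of 9966 measured genes and in 3.99% of all 27305 genes. None of the genes called lower or higher held one of these exact spellings, and looser spellings were not searched. The CCAAT box was in 14 of 30 (46.7%), against 43.5% of measured genes, and TTTGAA in 2 (6.67%), against 13.5%. Repair genes with and without an E2F match had median log2 ratios of -0.25 and -0.04, beside -0.06 and -0.02 among measured genes. For the CCAAT box the medians were -0.28 and 0.11, beside -0.04 and -0.01, and for TTTGAA they were both -0.13, beside -0.07 and -0.02. These splits are descriptions on few genes, and no test was made of them.

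The 100 bases before the start are shown for the called genes other than the X-linked FANCB, for MUS81 as the partner of EME1, and for FANCC as an example with an E2F match. Capitals mark a CCAAT box or its reverse complement ATTGG, and in FANCC the E2F spelling. RAD51AP1 (chr12:4538790-4538889, plus strand) had 1 CCAAT box in this stretch, and BRIP1 (chr17:61863529-61863628, minus strand) and BLM (chr15:90717246-90717345, plus strand) had 2 each. EME1 (chr17:50373129-50373228, plus strand), MUS81 (chr11:65860333-65860432, plus strand) and FANCE (chr6:35452238-35452337, plus strand) had no such letters here. FANCC lies at chr9:95317710-95317809, minus strand. A match is a description of the letters and not of a bound site.
RAD51AP1: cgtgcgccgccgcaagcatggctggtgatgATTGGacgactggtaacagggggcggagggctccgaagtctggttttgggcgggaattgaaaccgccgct
BRIP1: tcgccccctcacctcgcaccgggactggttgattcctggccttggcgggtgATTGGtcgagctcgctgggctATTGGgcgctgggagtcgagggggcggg
BLM: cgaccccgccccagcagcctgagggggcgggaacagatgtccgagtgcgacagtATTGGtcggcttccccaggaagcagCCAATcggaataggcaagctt
EME1: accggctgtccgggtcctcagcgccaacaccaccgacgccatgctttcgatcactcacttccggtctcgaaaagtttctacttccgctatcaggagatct
MUS81: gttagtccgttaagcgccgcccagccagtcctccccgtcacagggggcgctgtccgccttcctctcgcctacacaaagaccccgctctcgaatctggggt
FANCE: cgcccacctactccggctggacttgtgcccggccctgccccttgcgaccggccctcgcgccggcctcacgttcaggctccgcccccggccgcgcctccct
FANCC: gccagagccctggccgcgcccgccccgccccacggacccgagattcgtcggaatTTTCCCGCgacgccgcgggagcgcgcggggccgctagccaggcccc

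A further 39 genes of the same pathways were looked at beside these. Of the 35 of them that were measured, 4 rose (11.4%) and 5 fell (14.3%) at least 1.5-fold, with a median log2 ratio of -0.11. Both shares lay near the 13.7% and 11.9% of all measured genes. The rises were FAAP20 (280 and 512 counts, 1.64-fold, 1.41 to 1.90), a core complex subunit, FAAP24 (32 and 61), the partner of FANCM, and ZSWIM7 (478 and 807) with its partner SWSAP1 (46 and 80), which form the Shu complex. The falls included FIRRM (208 and 131 counts, 1.77-fold, 1.42 to 2.22), and UBE2T (860 and 633, 1.52-fold, 1.37 to 1.68), the ubiquitin-conjugating enzyme that works with FANCL. SFR1 (164 and 115), an accessory factor of strand exchange, and the X-linked deubiquitinase gene BRCC3 (367 and 271) also fell. CENPX, counted as STRA13, a symbol that another gene has also carried, had 481 and 311 counts and fell 1.72-fold (1.49 to 2.00).

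Because many repair genes peak in S phase, genes of the cell cycle were set beside the recombination and Fanconi genes. Of 34 DNA replication and G1/S genes, 10 fell (29.4%) and 1 rose (2.94%) at least 1.5-fold, with a median log2 ratio of -0.37. Among all measured genes 11.9% fell and 13.7% rose. RFC2, a clamp loader subunit, fell from 495 to 288 counts, 1.92-fold (1.65 to 2.22). The transcription factor gene E2F1 fell from 1615 to 1014, 1.78-fold (1.64 to 1.92). RFC3 rose from 238 to 428 counts, 1.61-fold (1.37 to 1.90), and its neighbours on chromosome 13 had a median log2 ratio of 0.83, above its own 0.69. Of 29 G2/M genes, 7 fell (24.1%) and 0 rose, with a median of -0.33. DLGAP5, a spindle protein, fell 1.97-fold (1.77 to 2.198) and CCNA2, cyclin A, 1.87-fold (1.73 to 2.01). By the interval alone, 25 of the 34 replication genes (73.5%) and 22 of the 29 mitotic genes (75.9%) lay below 1. Above it lay 2 (5.88%) and 1 (3.45%). The recombination and Fanconi genes had 12 below (34.3%) and 10 above (28.6%), and all measured genes had 30.4% below and 27.7% above. These shares also depend on depth, because higher counts give narrower intervals. The median sum of counts over both libraries was 1021 for the replication and 1651 for the mitotic genes. For the recombination and Fanconi genes it was 587, and for all measured genes 483. The part that cell cycle phase has in the repair gene values was not tested.

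**Figure D4:**
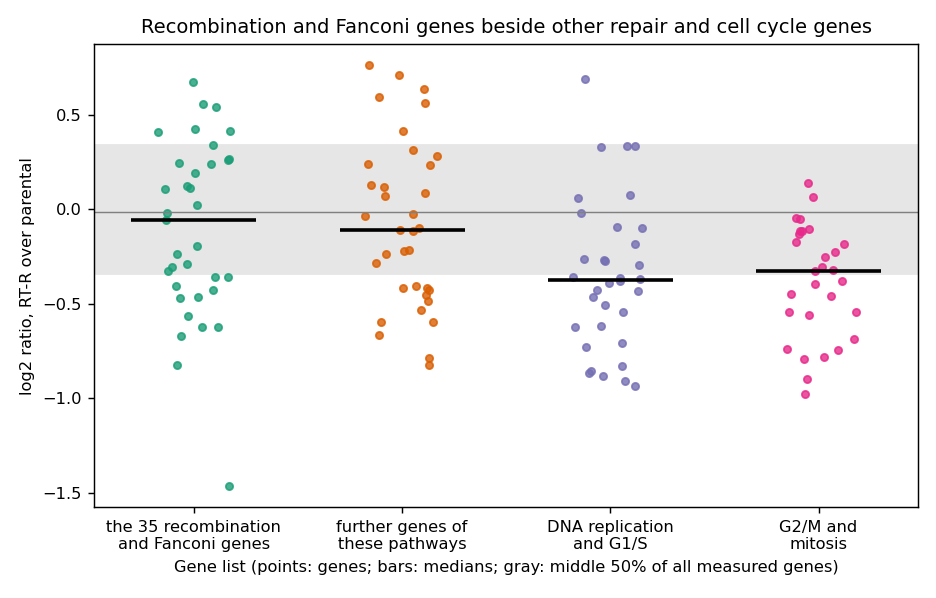
Log2 ratio of RT-R over parental (scaled counts plus 0.5) for each measured gene of 4 lists, with list medians as black bars and the middle 50% of all measured genes in gray. The medians of the 35 recombination and Fanconi genes (-0.06) and of the further pathway genes (-0.11) lie near 0, and those of the replication (-0.37) and mitosis (-0.33) lists lie lower.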

How the data were processed

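Per the labels' protocols, a single 3' tag library (Lexogen QuantSeq) was made from total RNA of each line. The authors deposited raw counts per gene symbol. The submitters' processing notes name the build hg19 and the tools Bowtie2, bedtools and bcl2fastq (2.20.0.422). Settings, annotation, strand use and the treatment of multiply matching reads: not given in the sources used here. No molecular identifiers are mentioned, so intervals cover counting error of reads only.

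Rows of the same symbol were summed. Library sizes were scaled in edgeR 4.0.16 (R 4.3.3), which set the RT-R library at 1.12 times the parental one, and edgeR was used for nothing else. Log2 ratios used scaled counts plus 0.5, fold calls were made on them, and exact conditional (Clopper-Pearson) 95% intervals came from scipy 1.17.1. Pair intervals are exact conditional intervals of the odds ratio. Neighbours, 15 measured genes per side, followed RefSeq order, which placed 98.4% of measured genes. The calculations were tested on simulated data.

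The 35 genes, the further lists and the 1.5-fold rule were chosen with earlier results of these data known. All 35 are given. Of each other list, up to 2 highest and 2 lowest called genes by the interval bound nearest to 1 were to be named, and others named were chosen after their values were seen. Alternatives were 3 other scalings (DESeq2 1.42.0 for the median of ratios), a pseudocount of 5, count minimums of 0 and 100, fold alone and neighbour subtraction. One cell type marker of the design is not reported here.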

Additional observations from a re-analysis of the deposited data

How the results depend on the processing

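The number of genes called at 1.5-fold, 1 higher and 5 lower, depended on scaling: it was 3 and 3 with total counts and 2 and 3 with the upper quartile, where BLM (log2 ratios of -0.58 under both) and EME1 (-0.58 under both) missed the threshold, MUS81 passed it, and RAD52 passed it with total counts alone. With neighbours subtracted, 2 were higher and 4 lower, since RAD52 passed and FANCB (-0.70) did not, and the number 2-fold lower was 0 in place of 1. A minimum of 100 counts also gave 0, because it leaves out FANCB. The median log2 ratio of the 35 genes, -0.06, was -0.01 with total counts, -0.05 with the median of ratios, -0.02 with the upper quartile, -0.06 with a pseudocount of 5 and -0.03 with neighbours subtracted; it has no error of its own here. The minimum of 100 counts leaves 28 of them, with a median of 0.00072. BRIP1, RAD51AP1 and FANCE kept their calls under the 3 other scalings, a pseudocount of 5 and neighbour subtraction, while the other count minimums and fold alone could not change them. RAD50 was the only gene whose log2 ratio changed sign with scaling. No paired analysis was possible because each line has 1 library, and for the same reason no library could be left out. Genes under 50 counts in both libraries, 6 of the 35, allow only large differences to be seen.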

Other observations

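One endothelial marker, chosen with others to look for foreign cells, was well counted. PECAM1, a cell adhesion protein, had 223 parental and 50 RT-R counts, 4.97-fold lower (3.65 to 6.90), while CDH5 had 0 and 1 count and VWF 1 and 1.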
